A study of Homo sapiens with 18 samples.

Results

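The 52 genes described here are MYC, a transcription factor that drives growth genes, and 51 genes that act in ribosome production, mostly in the nucleolus. They were taken by gene symbol from a list chosen by the HaCaT counts at 24 h after a scratch against 0 h, where RRP12 and NOL6 were among the clear falls. No numeric threshold was part of that choice. All 52 were found among the 58735 genes of the deposited table. All 52 also passed the filter on low counts, which left 17409 genes for testing. RNA was sequenced from 2 human keratinocyte lines. HaCaT is an established immortal line from skin, and TIGK is an immortalised line from gingiva, the gum. Each line was collected without a scratch (0 h) and at 6 h and at 24 h after the cell layer had been scratched, which makes 6 groups of 3 libraries. The study asked which expression differences go with the better healing of oral keratinocytes. No agent or allele other than the scratch separates the groups of a line. Each line is a single line, so a difference between HaCaT and TIGK is a difference between those lines. Unscratched cells kept for 24 h are not among the samples, so an effect of the scratch and one of longer culture cannot be told apart. Nothing in the labels says that the libraries of a group came from separate cultures. If they did not, the spread behind the p-values is technical only. In bulk RNA, fewer cells of a type and less RNA per cell cannot be told apart.

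Ribosomes are built in the nucleolus. RNA polymerase I copies the ribosomal RNA genes into a long precursor, small nucleolar ribonucleoproteins (snoRNPs) modify it, and large complexes cut and fold it into the small (40S) and large (60S) subunits, which are then exported. The work takes a large share of the resources of a growing cell. MYC, paired with MAX, binds the E-box CACGTG and raises transcription of many genes of this pathway, while MXD proteins and MNT compete for MAX and act as repressors. Keratinocytes at a wound edge spread, migrate and divide, and MYC is known for driving growth of the basal, dividing layer of the epidermis.

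Libraries held 14238090 to 25011331 counted reads. The TIGK libraries lettered C at 0 h and 6 h stood apart, with 26246 and 25161 genes with a count, where the other 16 libraries had 21164 to 22799. Both lines carried the basal keratinocyte markers: the 11 summed to 55739 to 57146 CPM at 0 h and 48807 to 52665 CPM at 24 h in HaCaT, and to 43871 to 45997 and 49042 to 54281 CPM in TIGK. CPM is a read count scaled by library size and by a scaling factor for each library (TMM). The mitochondrially encoded share of reads was 7.64 to 8.08% at 0 h and 7.196 to 7.55% at 24 h in HaCaT, and 5.08 to 6.08% and 6.73 to 7.33% in TIGK. Of 6 fibroblast markers, COL1A2 and PDGFRA were at or near 0 in both lines. The 6 summed to 21.0 to 40.6 CPM in HaCaT and to 236 to 274 CPM in TIGK at 0 h and 389 to 434 CPM in TIGK at 24 h, where 3 of the 4 tested rose and DCN (decorin) went from 100.3 to 230.2 CPM. Melanocyte, immune and endothelial lists each summed to at most 27.7 CPM, with TYR and LYZ at 0. The part of these markers and shares in the changes below was not tested.

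RefSeq's promoter table (GRCh38.p14, 250 bases before to 50 after a start site) held a single window for 36 of the 52 genes. Only genes with a single window were used. The E-box CACGTG, which reads the same on both strands, was in 16 of the 36, or 44.4% (exact 95% interval 27.9 to 61.9%, counting error only). It was in 7.26% of all 35116 windows of the table, a share taken without the limit to a single window per gene. Among tested genes with a single window, it was in 10.2% of 8248 windows. The 16 were FBL, UTP4, UTP14A, UTP18, UTP20, WDR43, PWP2, RRP9, NOL6, NOP14, NAT10, BYSL, LTV1, PES1, NOP2 and MYBBP1A. With CACGCG counted as well, on either strand, 69.4% of the 36 windows held a match, against 17.4% of all windows and 26.4% of those of tested genes. A match describes the letters of the window and is not evidence of binding. Below are stretches of 120 bases before to 30 bases from the start site, 5′ to 3′ on the gene's own strand, with the E-box in capitals. They show the motif close to the start in NOL6 and in genes of the same processing complex and of the large subunit, and NOP56 is given as a gene that fell and holds no match here.
NOL6 (chr9:33473895-33474044, minus strand): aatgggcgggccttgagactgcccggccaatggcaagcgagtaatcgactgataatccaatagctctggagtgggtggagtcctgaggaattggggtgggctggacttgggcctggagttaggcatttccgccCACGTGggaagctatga
RRP9 (chr3:51941875-51942024, minus strand): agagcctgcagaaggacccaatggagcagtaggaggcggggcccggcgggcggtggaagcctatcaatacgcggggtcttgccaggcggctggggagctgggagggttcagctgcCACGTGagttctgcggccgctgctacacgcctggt
UTP20 (chr12:101279985-101280134, plus strand): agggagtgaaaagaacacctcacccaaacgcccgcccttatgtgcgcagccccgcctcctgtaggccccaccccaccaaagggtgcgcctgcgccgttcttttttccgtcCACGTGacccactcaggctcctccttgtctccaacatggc
UTP18 (chr17:51260426-51260575, plus strand): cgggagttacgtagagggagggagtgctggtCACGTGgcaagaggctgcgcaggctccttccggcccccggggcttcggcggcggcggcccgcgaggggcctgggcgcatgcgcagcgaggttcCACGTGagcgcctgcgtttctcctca
NAT10 (chr11:34105509-34105658, plus strand): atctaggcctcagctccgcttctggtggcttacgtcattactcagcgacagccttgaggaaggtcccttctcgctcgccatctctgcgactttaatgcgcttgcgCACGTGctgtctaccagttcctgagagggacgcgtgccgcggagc
PES1 (chr22:30591881-30592030, minus strand): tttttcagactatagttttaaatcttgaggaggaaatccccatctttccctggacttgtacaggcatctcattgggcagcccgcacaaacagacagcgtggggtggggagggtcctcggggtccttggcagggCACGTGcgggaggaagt
NOP56 (chr20:2652512-2652661, plus strand): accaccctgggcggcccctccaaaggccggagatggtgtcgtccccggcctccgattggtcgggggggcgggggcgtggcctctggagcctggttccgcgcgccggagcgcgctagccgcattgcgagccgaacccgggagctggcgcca
In NOL6 and PES1 the motif starts 13 bases past the start site, in RRP9, UTP20 and NAT10 it starts 5, 10 and 15 bases before it, and UTP18 has a match 89 bases before and another 4 bases past. In TIGK at 24 h against 0 h, the genes with a match had a median log2 fold change of -0.65 (n = 16). The 20 with a single window but no match had -0.59. The ranges, -1.14 to -0.14 and -1.08 to -0.22, overlapped nearly in full. No test was made of this split.

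On the deposited FPKM scale, which divides by gene length and so allows genes to be compared, levels spanned a wide range. NPM1 (nucleophosmin), an abundant nucleolar chaperone, had the highest mean over all 18 libraries, 190.1 FPKM. NCL (nucleolin), which binds precursor ribosomal RNA, followed with 131 FPKM, and MYC with 97.6 FPKM. NOLC1, a nucleolar phosphoprotein that works with the snoRNPs, had 75.95 FPKM, the helicase DDX21 62.2 FPKM and FBL (fibrillarin), the methyltransferase of the box C/D snoRNP, 58.1 FPKM. The highest levels in the remaining groups were 42.9 FPKM for BOP1 in 60S assembly, 36.4 FPKM for DKC1, the pseudouridine synthase of the H/ACA snoRNP, 32.2 FPKM for the RNA acetyltransferase NAT10, 25.97 FPKM for the RNA polymerase I factor UBTF and 20.1 FPKM for TSR1 in 40S maturation. The lowest were NOP2, a ribosomal RNA methyltransferase, with 0.191 FPKM, and PWP2, a subunit of the early small-subunit particle, with 2.38 FPKM. Both are uncertain. Of all 75-base windows of PWP2's longest protein-coding transcript 85.0% also occur in other genes, mostly FP565260.1. For NOP2 83.2% occur in AC006064.6, an overlapping gene on the same strand. The corresponding shares were 29.8% for NPM1, 28.0% for LTV1 and 22.8% for RRN3. They were 7.59% or less for the rest. Exons of TBL3, NHP2, HEATR1 and TSR1 overlap genes on the opposite strand over 29.9%, 27.4%, 23.2% and 20.9% of their bases, and whether counting used strand is not given in the sources used here.

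MYC (chr 8, 127735434 to 127741434, plus strand, hg38) was at the same order of level in all 6 groups. Its level was 253, 231 and 248 CPM in the HaCaT libraries lettered A, B and C at 0 h, 271, 252 and 269 CPM at 6 h and 221, 266 and 248 CPM at 24 h. In TIGK it was 312, 387 and 263 CPM at 0 h, 405, 414 and 311 CPM at 6 h and 334, 339.7 and 317 CPM at 24 h. The 0 h and 24 h libraries overlapped in both lines, and the TIGK libraries at 0 h and 6 h were spread widely, with C lowest at both times. In TIGK, MYC at 24 h against 0 h had a log2 fold change of 0.04 (SE 0.11, adjusted p = 0.807 by edgeR's quasi-likelihood test with Benjamini-Hochberg adjustment). At 6 h against 0 h it was 0.23 (SE 0.11, adjusted p = 0.328), and at 24 h against 6 h -0.19 (adjusted p = 0.189). Whether these last values pass depends on the filter and on which libraries are kept. With no low-count filter and all libraries, the change at 24 h against 6 h was -0.21 (adjusted p = 0.0463). Without the TIGK libraries lettered C at 0 h and 6 h it was -0.31 (adjusted p = 0.00432). Without TIGK 6 h C the change at 24 h against 6 h was -0.31 (adjusted p = 0.0225), and the change at 6 h against 0 h was 0.35 (0.0484) without TIGK 6 h C and 0.39 (0.0477) without TIGK 0 h B. The change at 24 h against 0 h was 0.20 (adjusted p = 0.18) without TIGK 0 h B and -0.08 (0.623) without TIGK 0 h C.

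**Figure D1:**
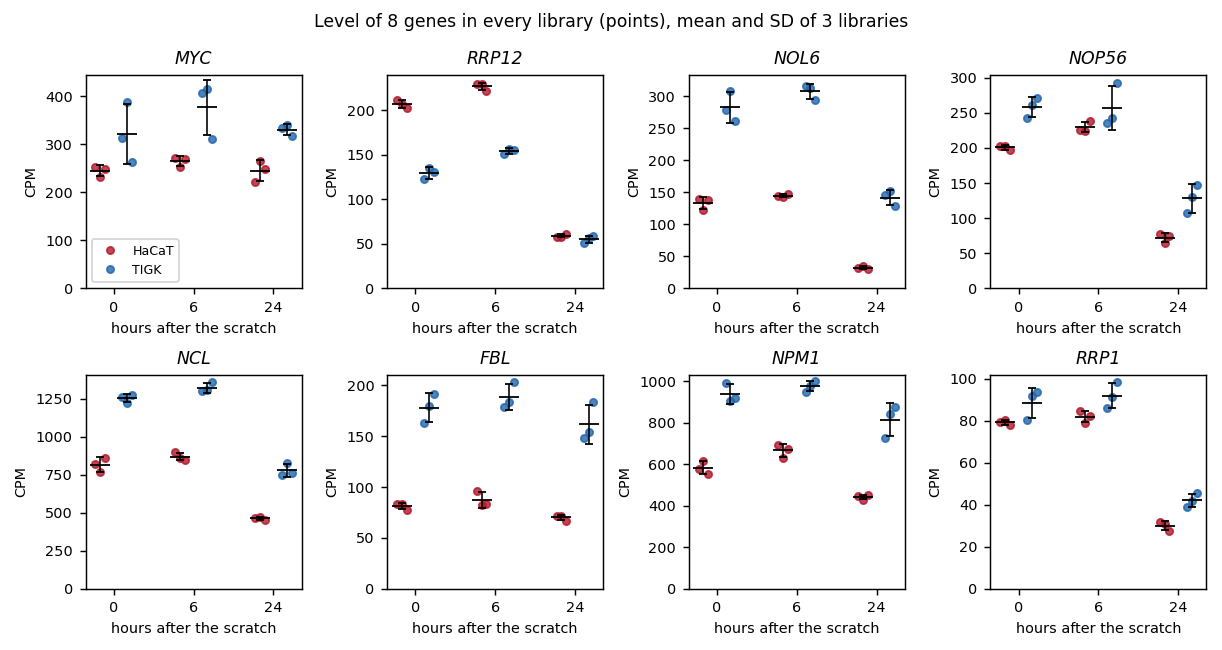
CPM (vertical axis, from 0) of 8 genes in every library of both lines, by hours after the scratch (horizontal axis); points are libraries, and the lines mark the mean and SD of 3 libraries. MYC at 24 h overlaps its own 0 h libraries in both lines, while RRP12 and NOL6 at 24 h lie below theirs.

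RRP12 (chr 10, 97356358 to 97426076, minus strand), which is needed for export and maturation of the ribosomal subunits, was at 211, 207 and 202 CPM in HaCaT at 0 h, 229, 229 and 222 CPM at 6 h and 57.9, 57.6 and 60.9 CPM at 24 h. NOL6 (chr 9, 33461441 to 33473930, minus strand), a scaffold subunit of the early small-subunit particle, was at 139, 122 and 137, then 143, 142 and 147 and then 31.7, 34.8 and 30.3 CPM. For both genes the HaCaT libraries at 24 h lie far below those at 0 h, and the libraries at 6 h lie above those at 0 h. Fitted levels at 24 h were 4.12-fold lower for NOL6 and 3.52-fold lower for RRP12. The 52 genes were chosen with this contrast in view, so its values are a description and carry no test. The libraries at 24 h lay below those at 0 h for 48 of the 52, where 22.5% of all genes tested did so. The median log2 fold change was -0.92, beside 0.0036 over all genes. The genes whose HaCaT libraries overlapped were MYC, NOP2, NHP2 and PWP2.

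The next lowest values in HaCaT at 24 h came from several steps of the pathway. PWP2, uncertain as said, had a log2 fold change of -1.71, and -0.91 without HaCaT 0 h A. Its HaCaT libraries A, B and C at 0 h were at 7.11, 2.66 and 1.68 CPM. MYBBP1A, a nucleolar MYB-binding protein, had -1.52, going from 309.9 ± 13.2 to 108 ± 8.28 CPM (SD, n = 3). NOP56, a core protein of the box C/D snoRNP, had -1.47, from 201 ± 3.57 to 72.3 ± 6.57 CPM. RRP1, a 60S assembly protein, had -1.40, from 79.2 ± 1.19 to 30.001 ± 2.06 CPM. Apart from PWP2, the libraries of these genes at 24 h lay below those at 0 h. POLR1B, the second largest subunit of RNA polymerase I, had -1.37, from 68.8 ± 8.09 to 26.7 ± 2.04 CPM, and RRP9, a U3 snoRNP protein, had -1.35. The median was -1.02 over 17 genes of the early small-subunit particle (the processome), -0.92 over 5 of later 40S maturation and export, -0.87 over 11 of 60S assembly and -0.78 over 7 of RNA polymerase I and its factors. MYC alone was above 0, at 0.0041. As a share of all counted reads, the 52 genes went from 0.692 to 0.716% per library at 0 h to 0.408 to 0.410% at 24 h.

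**Figure D2:**
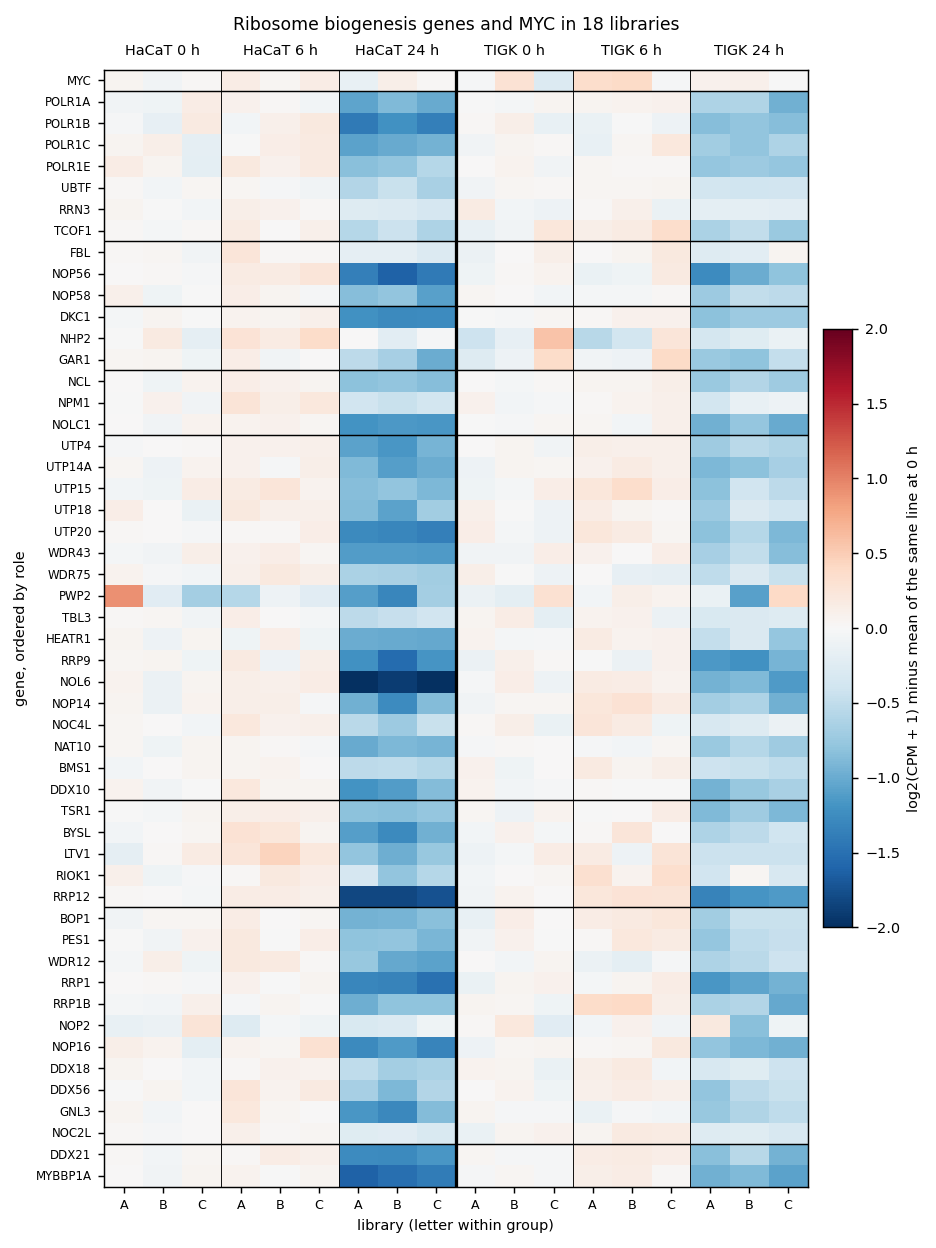
Heat map of the 52 genes (rows, by role) in 18 libraries (columns), coloured by log2(CPM + 1) minus the mean of the same line's 0 h libraries. The 24 h columns of both lines are blue over nearly all rows, MYC excepted, and the 6 h columns are pale.

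The TIGK libraries had no part in the contrast that put RRP12 and NOL6 forward, so their changes were tested. At 24 h against 0 h, 44 of the 52 genes fell in TIGK and 0 rose (edgeR's quasi-likelihood test, adjusted p below 0.05), where 17% of all 17409 genes fell and 15.3% rose. The median was -0.62, a fall of 35.1%, beside -0.01 over all genes. For 45 of the 52 the libraries at 24 h lay below those at 0 h, as they did for 21.5% of all genes. The 52 genes took 0.899 to 0.948% of counted reads at 0 h and 0.577 to 0.639% at 24 h. Without the libraries lettered C at 0 h and 6 h, 45 genes fell, and without TIGK 24 h C alone 46 fell.

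RRP12 fell furthest in TIGK. Its level was 122, 135 and 130.2 CPM at 0 h and 50.7, 56.3 and 58.4 CPM at 24 h, a log2 fold change of -1.23 (SE 0.070, adjusted p = 4e-12 by edgeR). Every library at 24 h was below every one at 0 h. RRP9 (chr 3, 51933430 to 51941941, minus strand) went from 31.9, 37.1 and 35.1 to 15.1, 14.4 and 17.8 CPM, a change of -1.14 (SE 0.12, adjusted p = 5.37e-08). RRP1 (chr 21, 43789513 to 43805293, plus strand) went from 80.4, 91.8 and 93.7 to 38.8, 41.9 and 45.3 CPM (-1.08, SE 0.084, adjusted p = 6.49e-10). Neither gene's groups overlapped. NOP56 (chr 20, 2652145 to 2658393, plus strand) went from 242, 261 and 271 to 107, 129.6 and 148 CPM (-1.01, adjusted p = 2.19e-08). NOL6, the deepest fall in HaCaT, went from 278, 308 and 261 to 145, 152 and 128 CPM in TIGK (-0.99, SE 0.080, adjusted p = 1.07e-09). MYBBP1A (chr 17, 4538897 to 4555631, minus strand) went from 314, 330.1 and 316 to 164, 173 and 151 CPM (-0.98, adjusted p = 2.52e-10). For all 3 of these genes every library at 24 h was below every library at 0 h.

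By role, genes of every group but MYC itself fell in TIGK at 24 h, where 17% of all genes fell. Of the 7 genes of RNA polymerase I and its factors 6 fell (median -0.72). POLR1B fell by 0.85 on the log2 scale. UBTF, which opens the ribosomal RNA genes for transcription, fell from 227 ± 8.64 to 173 ± 1.87 CPM (adjusted p = 7.03e-05), and RRN3, the initiation factor that couples the polymerase to growth, had -0.21 (adjusted p = 0.0552). In the box C/D snoRNP, NOP56 and NOP58 fell, and FBL stood at 163, 179.5 and 192 CPM at 0 h and 148, 154 and 184 CPM at 24 h (-0.14, SE 0.087, adjusted p = 0.248). Its groups overlapped. In the H/ACA snoRNP, DKC1 fell from 188 ± 4.31 to 111 ± 4.199 CPM (adjusted p = 1.99e-09) and GAR1 fell with it, while NHP2 had -0.32 (adjusted p = 0.231).

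The abundant nucleolar proteins all fell in TIGK, by unequal amounts. NCL went from 1262, 1222 and 1272 to 750.2, 829.8 and 761 CPM (-0.68, adjusted p = 1.23e-08) and NOLC1 from 364 ± 7.81 to 193 ± 16.99 CPM (-0.91, adjusted p = 4.97e-10). NPM1, at 993, 904 and 918 CPM at 0 h and 726, 843 and 876 CPM at 24 h, changed by -0.20 (adjusted p = 0.0337). The call of NPM1 was lost without TIGK 0 h A (adjusted p = 0.14), without TIGK 24 h A (0.207), with upper-quartile scaling (0.0527) and when only those 2 groups were fitted (0.197).

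Of the 17 processome genes 15 fell in TIGK (median -0.62), beside 17% of all genes, and NOC4L and PWP2 did not pass. NAT10 fell from 211 ± 4.01 to 132 ± 8.28 CPM (adjusted p = 3.96e-08). TBL3, at -0.29 (adjusted p = 0.009), lost its call without TIGK 0 h B (0.0729) and when only those groups were fitted (0.0579). Of 5 genes of later 40S maturation and export 4 fell, TSR1 by 0.84 on the log2 scale, and RIOK1, a kinase of 40S maturation, did not pass (-0.22, adjusted p = 0.211). LTV1, at -0.47, lost its call without TIGK 0 h C (adjusted p = 0.0718). Of 11 genes of 60S assembly 10 fell (median -0.58); BOP1, which with PES1 and WDR12 forms the PeBoW complex, fell from 191 ± 18.4 to 132 ± 12.7 CPM (adjusted p = 1.35e-05). NOP2, uncertain as said, did not pass. NOC2L, at -0.28 (adjusted p = 0.00243), lost its call when only the TIGK groups at 0 h and 24 h were fitted (0.0539). The helicase DDX21 went from 360.4, 347 and 345 to 196, 238 and 182 CPM (-0.77, adjusted p = 5.14e-08), with no overlap. At 24 h against 6 h, a comparison that shares the 24 h libraries, 47 of the 52 genes were lower and 0 higher (18.9% and 17.8% of all genes), with a median of -0.72.

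Set side by side at 24 h, 45 of the 52 genes had libraries below their own line's 0 h in both lines, and 3 in HaCaT alone, where 10.7% and 11.8% of all genes did so. Since the HaCaT side chose the genes, these counts are a description. MYC, NOP2, NHP2 and PWP2 overlapped in both lines. Across the 52 genes the log2 fold changes of the lines had a Pearson r of 0.77 and a Spearman rho of 0.75. Over all 17409 genes they were 0.29 and 0.39. Genes are not independent replicates, the 52 were picked with the HaCaT side in view, and both lines share the annotation and scaling, so these are descriptions. NOL6 was at -2.04 in HaCaT and -0.99 in TIGK, RRP12 at -1.81 and -1.23, RRP9 at -1.35 and -1.14, and NPM1 at -0.40 and -0.20. The HaCaT value was the lower for 48 of the 52. The difference between the lines in the 24 h response was called by edgeR as lower in HaCaT for 15 of the 52 and higher for 0 (6.45% and 7.07% of all genes). It contains the contrast that chose the genes, so nothing is read from these counts.

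**Figure D3:**
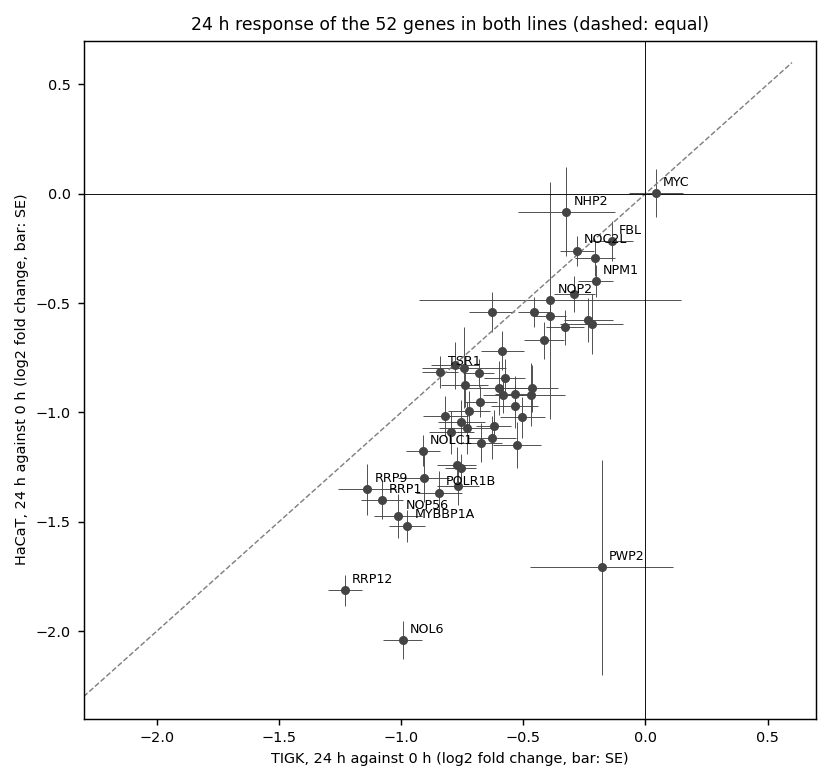
Log2 fold change at 24 h against 0 h in TIGK (horizontal axis) and HaCaT (vertical axis), 1 point per gene with its SE. The dashed line marks equal change. All points but MYC lie below 0 on both axes, and 48 of 52 have the lower value in HaCaT.

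At 6 h few of the genes passed the test, and most fitted values lay slightly above 0 h. In TIGK 1 of the 52 rose and 0 fell (2.5% and 1.12% of all genes), with a median of 0.08. The 1 was RRP12, at 122, 135 and 130.2 CPM at 0 h and 151, 156 and 155 CPM at 6 h (0.25, SE 0.068, adjusted p = 0.034 by edgeR). The groups did not overlap, yet the call was lost without TIGK 0 h A or C or without any 1 of the TIGK 6 h libraries (adjusted p 0.068 to 0.179). It was also lost without HaCaT 0 h A or B, HaCaT 6 h B or C or HaCaT 24 h A, which enter through the shared spread (0.0504 to 0.0557). With no low-count filter the call of RRP12 was lost (0.179), and RRP1B was called instead (0.28, adjusted p = 0.0443). RRP12 was also lost with only those groups fitted (0.118). With the replicate block by letter, 2 were called, RRP12 (0.0208) and RRP1B (0.29, adjusted p = 0.0143). An unadjusted p below 0.05 was reached by 6 of the 52 in TIGK, beside 14.4% of all genes. The libraries at 6 h lay above those at 0 h for 13 of the 52 and below for 0 (9.61% and 9.99% of all genes), and the fitted value was below 0 for 11 of the 52 (53.6% of all genes). The summed level of the 52 genes was 8954 to 9070 CPM at 0 h and 9506 to 9631 CPM at 6 h, with no overlap. That separation depends on the scaling. As a share of counted reads the 52 genes took 0.899 to 0.948% at 0 h and 0.910 to 0.978% at 6 h, which overlap.

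In HaCaT 0 of the 52 passed at 6 h against 0 h, where 0.201% of all genes passed. There an unadjusted p below 0.05 was reached by 2 of the 52, beside 7.55% of all genes, and DESeq2 also called 0. The libraries at 6 h lay above those at 0 h for 14 of the 52 and below for 0 (7.97% and 7.94% of all genes), the fitted value was below 0 for 4 of the 52 (49.1% of all genes), and the summed level went from between 6994 and 7230 to between 7516 and 7753 CPM. As a share of counted reads the 52 genes took 0.692 to 0.716% at 0 h and 0.737 to 0.757% at 6 h in HaCaT. That comparison shares the HaCaT 0 h libraries with the one that chose the genes. The difference between the lines in the 6 h response, which shares them too, was called for 0 of 52 by edgeR (0.752% of all genes).

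The lines themselves differed at 6 h. The contrast compares none of the libraries behind the choice of the genes, but these enter the fit through the shared filter, scaling and spread. With only the 2 groups of this comparison fitted, 26 of the 52 were lower in HaCaT and 6 higher. In HaCaT relative to TIGK 27 of the 52 genes were lower, 6 higher and 19 not called (32.8% and 29.8% of all genes were lower and higher), with a median of -0.21 beside -0.02 over all genes. MYC was lower in HaCaT, at 264 ± 10.7 against 377 ± 57.1 CPM (-0.51, SE 0.11, adjusted p = 0.000276), with no overlap. PWP2 was lowest, at 1.91, 2.99 and 2.68 CPM in HaCaT and 30.2, 34.1 and 33.03 CPM in TIGK (-3.68, adjusted p = 4.55e-09). However, most of the sequence of its longest transcript also occurs in other genes. RRP1B (chr 21, 43659548 to 43696079, plus strand), a nucleolar relative of RRP1, was at 126, 132 and 128 against 301, 308 and 253 CPM (-1.16, adjusted p = 1.8e-10).

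FBL (chr 19, 39834458 to 39846414, minus strand), the methyltransferase named above, was at 96.2, 82.6 and 82.8 CPM in HaCaT and 179, 184 and 204 CPM in TIGK at 6 h (-1.12, adjusted p = 7.87e-11). NOL6 was at 144 ± 2.56 against 308 ± 11.7 CPM (-1.09, adjusted p = 1.67e-11), the RNA polymerase I subunit POLR1E at 25.6 ± 1.11 against 50.7 ± 0.335 CPM (-0.99, adjusted p = 4.67e-09) and NOP14 at 75.4 ± 4.29 against 145 ± 5.87 CPM (-0.94, adjusted p = 6.57e-09). The HaCaT libraries of all these genes lay below those of TIGK. RRP12 went the other way, at 229, 229 and 222 CPM in HaCaT against 151, 156 and 155 CPM in TIGK (0.56, adjusted p = 1.08e-07). The other 5 higher in HaCaT were TBL3, RRP9, DDX56, UTP15 and GNL3, with folds of 1.32, 1.29, 1.28, 1.26 and 1.17. Calls of GNL3 were lost without TIGK 6 h A or C or HaCaT 6 h A (adjusted p 0.0605 to 0.207), and with DESeq2 (0.0507), its size factors (0.0559), upper-quartile scaling (0.0651) or no filter (0.0539). Calls were also lost of UTP15 without TIGK 6 h C (0.0701) or HaCaT 6 h B (0.0625), of NOP16 without TIGK 6 h C, HaCaT 6 h A or HaCaT 6 h B (0.0639 to 0.082) and of RRN3 without TIGK 6 h A or B or HaCaT 6 h B or C (0.0733 to 0.205), with no filter (0.139) or with only those groups fitted (0.064). UTP4, lower in HaCaT, lost its call with no filter (0.0523).

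**Figure D4:**
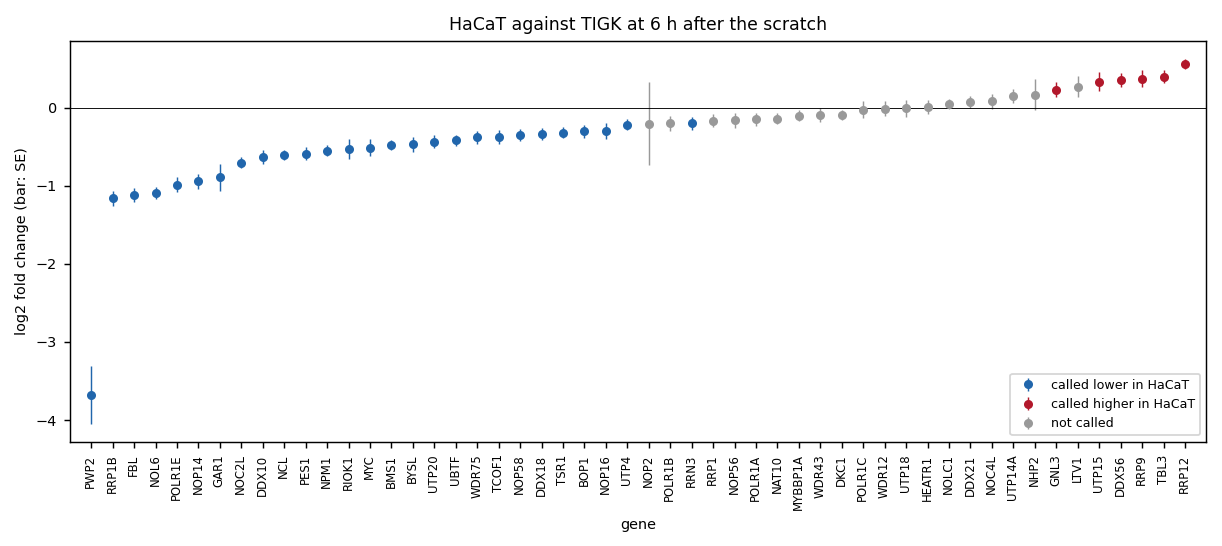
Log2 fold change of HaCaT against TIGK at 6 h (vertical axis) for the 52 genes (horizontal axis, in order), with SE bars and colours for lower, higher and not called. PWP2 at -3.68 stands far from the rest, which lie between -1.16 and 0.56.

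The lines at 0 h and at 24 h are given as counts, since these comparisons share the HaCaT libraries behind the choice of the genes. At 0 h 31 of the 52 were lower in HaCaT and 6 higher (33.3% and 29.3% of all genes), with a median of -0.30. At 24 h 43 were lower and 1 higher (33.1% and 28.6% of all genes), with a median of -0.57. RRP12 was at 207 against 129 CPM at 0 h and 58.8 against 55.1 CPM at 24 h. Its libraries overlapped between the lines at 24 h and not at 0 h. NOL6 was at 133 against 282 CPM at 0 h and 32.3 against 142 CPM at 24 h.

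Genes of ribosome production outside the 52, listed by function and not by how they moved, also fell in TIGK at 24 h. Of 114 tested, 75 fell and 4 rose (17% and 15.3% of all genes), with a median of -0.42. These lists were drawn up with earlier results of these data known. Among factors of the small subunit 22 of 34 fell and 0 rose, among them DHX37, a helicase that releases the U3 snoRNA (-1.01, adjusted p = 2.02e-10), PDCD11 (-1.03) and AATF (-0.65). Among factors of the large subunit 39 of 50 fell and 1 rose: LYAR (-0.97), SURF6 (-0.90) and LSG1, a GTPase of late 60S maturation (-0.82, adjusted p = 1.11e-08), fell, and NOP53 rose (0.38, adjusted p = 0.00118). Of 8 further genes of RNA polymerase I and its promoter factor SL1, 5 fell, with POLR1G at -1.01, and TAF1B rose (0.33). Of 8 snoRNP genes 4 fell and PIH1D1 rose (0.31). The RNA exosome, which trims ribosomal RNA and degrades other RNA, fell for 5 of 14, with EXOSC4 at -0.74, and C1D rose (0.62). HaCaT at 24 h against 0 h is the contrast that chose the 52 genes, so its counts are a description. There 90 of the 114 were lower and 0 higher (15.9% and 15.5% of all genes), with a median of -0.66. Between the lines at 6 h they went both ways, 39 lower and 25 higher in HaCaT, with a median of -0.01. These shares are near or below those of all genes, 32.8% lower and 29.8% higher. The list included NOL8 (0.91) and GTPBP4 (0.81), higher, and DDX49 (-1.10), lower.

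Known MYC targets outside the nucleolus fell in TIGK at 24 h for 17 of 24, and 0 rose (median -0.42). Of all genes 17% fell and 15.3% rose. ODC1, the first enzyme of polyamine synthesis, went from 386, 428 and 349.7 to 121, 165 and 146 CPM (-1.43, adjusted p = 7.02e-11), and MAT2A, which makes S-adenosylmethionine, had -1.18 (adjusted p = 9.33e-12). The groups of ODC1 did not overlap, and in HaCaT it was at 265 CPM at 0 h and 80.8 CPM at 24 h. The chaperone HSPD1 had -0.82 in TIGK. In HaCaT at 24 h, given as a description, 18 of the 24 were lower and 1 higher (15.9% and 15.5% of all genes), with a median of -0.44. Between the lines at 6 h 13 were lower in HaCaT and 1 higher (32.8% and 29.8% of all genes). Among the lower were the transferrin receptor gene TFRC (-1.39) and the purine enzymes PPAT (-1.05) and PAICS (-0.95).

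MYC's partners and competitors moved in both directions. Of 10 genes of the MYC network 5 rose and 4 fell in TIGK at 24 h (15.3% and 17% of all genes). MYCL, a relative of MYC, rose from 9.46, 10.1 and 9.796 to 40.3, 28.997 and 30.4 CPM (1.76, adjusted p = 1.53e-08). The repressors MXD3 (1.31, adjusted p = 1.99e-06), MXD1 (0.67, adjusted p = 0.000276), MNT (0.65) and MXD4 (0.34) rose too. MXD1 was at 15.5 ± 1.84 CPM at 0 h and 24.8 ± 2.32 CPM at 24 h. MAX, the shared partner, was among the 4 that fell (-0.45, adjusted p = 0.000565), and the others that fell are not named here. In HaCaT, given as a description, 6 were higher and 4 lower at 24 h (15.5% and 15.9% of all genes). There MXD1 was at 19.2 ± 1.02 CPM at 0 h and 95.5 ± 9.03 CPM at 24 h. MXI1, another repressor of the family, was at 21.9 ± 0.503 and 60.1 ± 10.8 CPM. In TIGK MXI1 had -0.17 (adjusted p = 0.42). Between the lines at 6 h the network was higher for 4 and lower for 3 in HaCaT, near the 29.8% and 32.8% of all genes, with MGA at -1.72.

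Proliferation genes did not move as one. Of 20 in TIGK at 24 h 7 rose and 7 fell, beside 15.3% and 17% of all genes (median -0.12). TOP2A and BUB1, genes of mitosis, had 1.23 and 1.03, and CDC6, which licenses replication, had -0.71. Their summed level was 3134 to 3253 CPM at 0 h and 3000 to 3365 CPM at 24 h in TIGK, which overlap. In HaCaT, given as a description, 7 were higher and 2 lower at 24 h (15.5% and 15.9% of all genes). The sum in HaCaT was 2398 to 2595 CPM at 0 h and 2885 to 2941 CPM at 24 h. The part of proliferation in the changes of the 52 genes was not tested.

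**Figure D5:**
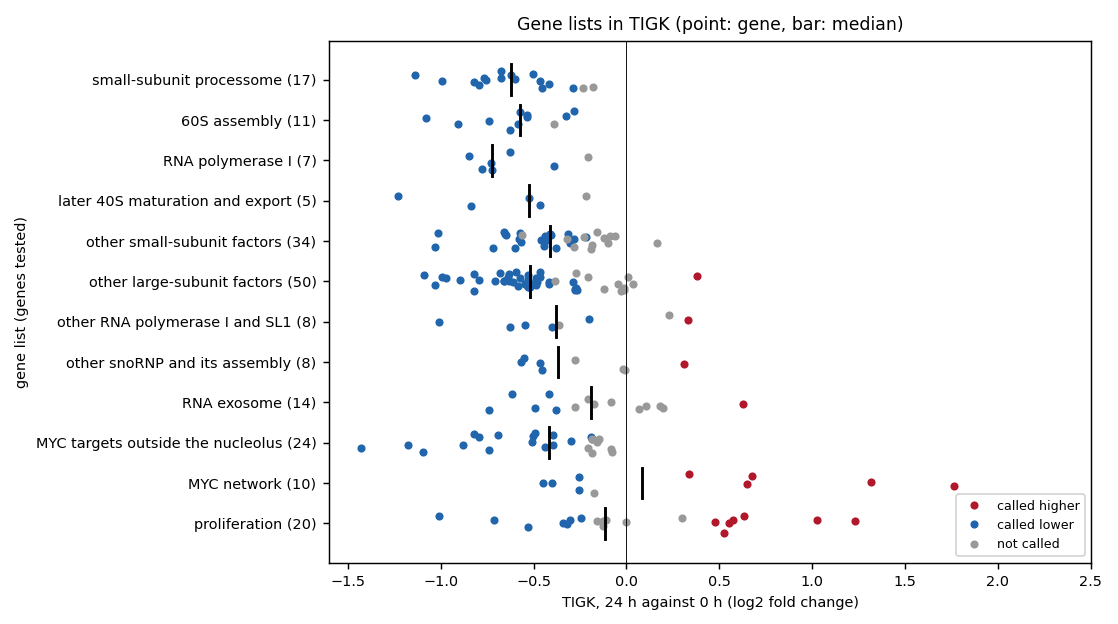
Log2 fold change in TIGK at 24 h against 0 h (horizontal axis) of each gene in 12 lists (vertical axis), with called and not called genes in different colours and a bar at each list's median. The medians of the lists of ribosome production and of MYC targets lie below 0, and the MYC network and proliferation lists spread to both sides.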

How the data were processed

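RNA from HaCaT and TIGK keratinocytes was sequenced in 18 libraries, 3 in each of 6 groups. The submitters' processing notes name featureCounts 1.5.0-p3, HISAT2 2.0.5 and StringTie 1.3.3b, with build hg38, and give no role for each. The annotation release and the strand setting are not given in the sources used here. The deposited count table holds the authors' whole-number read counts per gene. The authors' deposited FPKM values divide by gene length and were used only to compare levels between genes. Columns carry a letter, which the labels do not tie to replicate numbers, so libraries are named by line, time and letter. Deviations of TIGK libraries with the same letter at 0 h and 6 h correlated in every pair (0.343 to 0.728). A and B across letters correlated as well (0.282 and 0.233), and C against A or B gave -0.509 to -0.413. These values set C apart and do not show that A and B are paired by letter. That comparison is also given with the letter as a replicate block, a pairing that the labels do not give.

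Counts were fitted with edgeR 4.0.16 in R 4.3.3: filterByExpr, TMM scaling, 6 group means, a quasi-likelihood test with 12 residual degrees of freedom, and Benjamini-Hochberg adjustment over 17409 genes at 0.05. Rose, fell, higher and lower refer to this threshold, and it is two-sided. The step was tried on simulated counts for TIGK at 24 h against 0 h only. Apart from the changes put in, these had a common mean per gene in all groups. They held no difference between lines and no deviating library, so they do not test those features of these data. The SE is the log2 fold change divided by the square root of F. A prior count of 0.125 was used in fold changes. Comparisons of libraries of a group differed beyond sampling noise, so none was counted as a duplicate. In TIGK at 24 h, C differed from A and B by 17.8 and 13.4 (chi-square per degree of freedom), and A from B by 7.03.

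The members and lists were chosen with earlier results of these data known. The named genes are MYC, RRP12 and NOL6, the member with the highest FPKM in each role, the 6 called members with the largest change per tested comparison, the 8 lowest in HaCaT at 24 h, up to 3 genes per further list, and, chosen after their values were seen, members that did not pass, risen members of falling lists and genes whose call rests on 1 library. Sequences shared with other genes were found in 75-base windows of each member's longest protein-coding transcript, compared with all GENCODE 29 transcripts. Alternatives were DESeq2 1.42.0, other scaling, no filter, fits to fewer groups, a replicate block and leaving out libraries.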

Additional observations from a re-analysis of the deposited data

How the results depend on the processing

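In TIGK at 24 h against 0 h, between 41 (only those groups fitted) and 45 of the 52 genes were called lower under DESeq2, other scaling, no filter, fewer groups, the replicate block by letter (45) and without the TIGK libraries lettered C at 0 h and 6 h; leaving out 1 library gave 43 to 46. Beyond TIGK at 0 h and 6 h, same-letter deviations correlated from -0.093 to 0.194 in TIGK and from -0.183 to 0.145 in HaCaT. Letters are not taken as pairs there either. In TIGK at 6 h the 1 call became 2 with DESeq2, 2 with the replicate block, 0 with only those groups fitted and 0 without the TIGK libraries lettered C. It became 0 to 2 when 1 library was left out. With no filter the count stayed at 1, but the gene called was RRP1B and not RRP12. The cause was not tested. Between the lines at 6 h the replicate block gave 29 lower and 6 higher. The median in HaCaT at 24 h, -0.92, was -0.88 with upper-quartile scaling and -0.95 to -0.92 when 1 library was left out. The E-box share of 44.4% became 69.4% with CACGCG counted, because more sequences match. None of these results turned direction. With 3 libraries a group, changes of the size of FBL's or NPM1's are near the limit of what passes.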
